A study of Bos taurus with 8 samples.

Results

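Vimentin (VIM) and the keratins KRT8, KRT18, KRT19 and KRT7 were followed in cattle embryos at the blastocyst stage, grown in vitro from oocytes that had matured with or without insulin. A probe was taken for a gene when the platform's gene symbol equalled its name. All 5 genes had exactly 1 probe each, out of 15229 symbols on the array, so no value of these 5 has a second probe of the same gene beside it. Every one of these probes lay above background in 16 of 16 channel readings, and all 5 therefore entered the tests.

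The oocytes came from slaughterhouse ovaries and were matured in medium with bovine insulin at 0.1 µg/ml (INS0.1), at 10 µg/ml (INS10) or with none added (control), then fertilised and cultured to blastocysts. Each of 8 two-colour arrays paired amplified RNA of insulin-treated and control embryos, 1 in each dye, with 4 arrays per dose. Insulin RNA was in Cy5 on replicates 1 and 2 of each dose and in Cy3 on replicates 3 and 4. The labels call the 4 replicates of a treatment biological, but the number of embryos behind them is not given in the sources used here, so p-values measure the spread between these arrays only. The labels do not say whether the arrays of equal number in both doses shared control RNA. By the numbering of the scanner tables the 4 arrays of a dose came from 1 slide, so dose and slide cannot be told apart, whereas insulin and control were compared within each array.

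Keratins and vimentin are intermediate filament proteins, the rope-like part of the cytoskeleton. Keratins form filaments only as pairs of a type II keratin (KRT8, KRT7) with a type I keratin (KRT18, KRT19), and they mark epithelia. In the blastocyst the trophectoderm is the epithelium that surrounds the cavity and later forms the placenta, and KRT8 with KRT18 is its classical filament pair. Vimentin is a type III protein that forms filaments by itself and is typical of mesenchymal cells. In RefSeq's table of cattle genes (assembly ARS-UCD2.0), KRT18 and KRT8 are direct neighbours, with 0 protein-coding genes between them, KRT7 lies in the same keratin cluster with 32 protein-coding genes between it and KRT8, and KRT19 and VIM lie on other chromosomes.

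Detection of lineage markers was looked at first. Of listed markers, 13 of 14 for trophectoderm, 8 of 10 on the array for the inner cell mass and 10 of 11 for hypoblast were above background in at least 4 of 16 readings. CDX2, the trophectoderm transcription factor, was above background in 14 readings, and GATA3 and the ruminant pregnancy signal gene IFNT in all 16. Over all bovine probes, 29384 of 43794 (67.1%) passed this detection filter. Of listed fibroblast genes 6 of 8 passed it too, and of sperm genes 5 of 6. Passing it therefore does not establish which cell types were present.

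KRT8, KRT18 and KRT19 gave some of the brightest spots, close to the highest value the scanner can give, 65535. The KRT8 spot read 63812 to 65535 in Cy5 and stood at the ceiling on 4 of 8 arrays, namely INS0.1 replicate 1, where Cy5 held insulin RNA, and INS0.1 replicates 3 and 4 and INS10 replicate 3, where it held control RNA. In Cy3 the same spot read 33293 to 55118. Over the whole array only 16 probes reached the ceiling in Cy5 on any array, and 0 did so in Cy3. KRT18 read 40126 to 61795 in Cy5 and KRT19 up to 64360 in Cy3, both close under the ceiling without touching it. KRT7, at 1499 to 3539 over both dyes, and VIM, at 327 to 2398, were far below it. A reading at the ceiling is only a lower bound, so a KRT8 ratio there is compressed by an amount that cannot be read from the array.

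**Figure D1:**
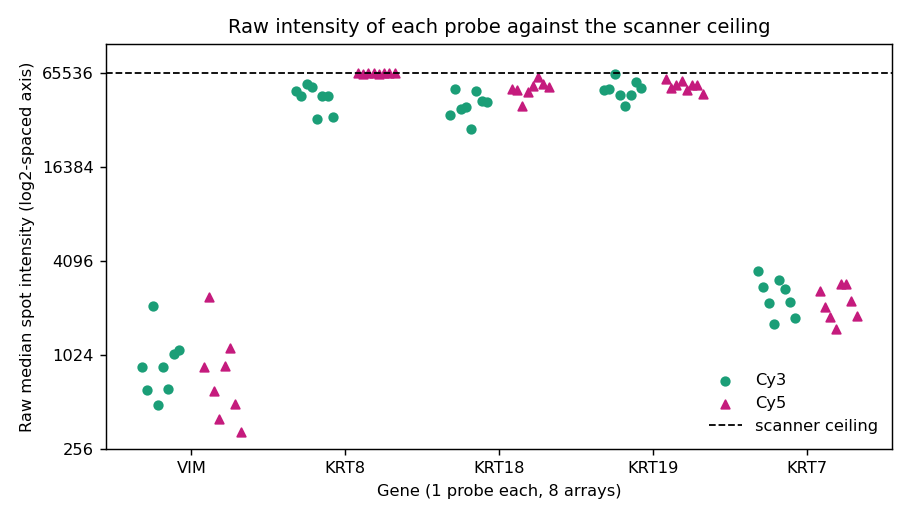
Raw median spot intensity (vertical axis, log2-spaced) of the 5 probes on 8 arrays, with Cy3 readings as circles, Cy5 readings as triangles and the scanner ceiling of 65535 as a dashed line. The KRT8 Cy5 readings lie on or just under the line, KRT18 (28763 to 61795) and KRT19 (40294 to 64360) lie below it, and no reading of VIM or KRT7 exceeds 3539.

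VIM was the gene of the group that rose with insulin. On the INS0.1 arrays its spot read 855, 2398, 2103 and 491 with insulin on replicates 1 to 4, against 857, 608, 601 and 400 in the control. On the INS10 arrays the insulin readings were 867, 1126, 1040 and 1102, against 854, 620, 498 and 327. Insulin and control were thus level on both arrays numbered 1, close on INS0.1 replicate 4, and well apart on the other 5.

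After normalisation within each array, the log2 ratios of VIM, insulin over control, were 0.32, 2.38, 1.63 and −0.10 on INS0.1 replicates 1 to 4 and 0.40, 1.21, 0.83 and 1.57 on INS10 replicates 1 to 4. The ratio was above 0 on 7 of 8 arrays, as it was for 5.43% of all tested probes (above 0 on 7 or 8 arrays). As the mean of both doses VIM was 2.04-fold higher with insulin (log2 1.03, SE 0.20, 95% confidence interval 0.62 to 1.44, limma adjusted p = 0.00540). In that comparison 1.65% of the 29384 probes passed the adjusted threshold of 0.05, 1.48% as higher, and 1 of the 5 genes did so. Only 0.0681% of probes had a larger log2 ratio, and 0.613% a smaller p.

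**Figure D2:**
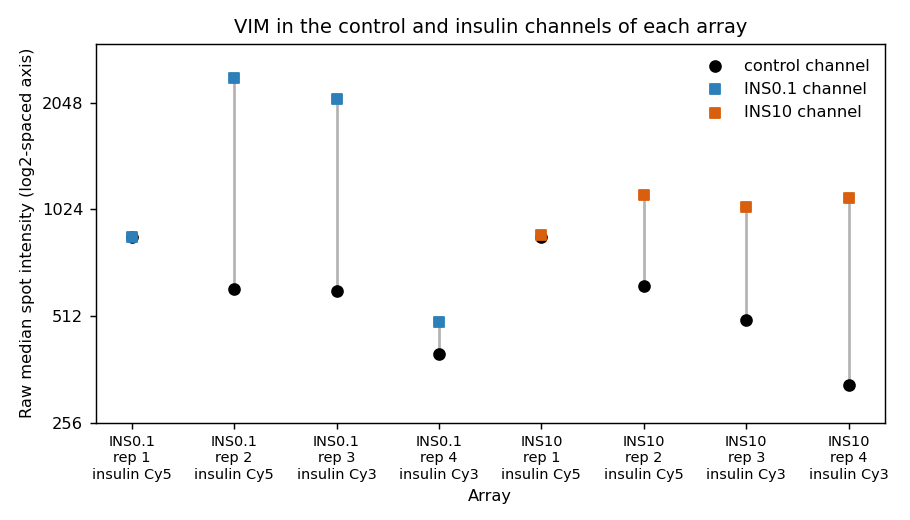
Raw median spot intensity of VIM (vertical axis, log2-spaced) on each array, with the control channel as a black circle, the insulin channel as a coloured square and a grey line joining both. The 4 INS10 readings lie between 867 and 1126, the 8 control readings between 327 and 857, and the 4 INS0.1 readings between 491 and 2398.

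The size of the rise differed strongly from array to array. The residual SD of VIM was 0.97 on the log2 scale, above that of 99.9% of tested probes, whose median was 0.31. The SE given above borrows spread from all probes, as limma does. Taken alone, the 8 ratios gave a two-sided exact sign-flip permutation p = 0.0156, where the smallest possible with 8 arrays is 0.00781. Averaged over both doses by replicate number they were 0.36, 1.79, 1.23 and 0.74, all above 0, and the exact p over these 4 means was 0.125, the smallest that 4 values allow.

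No single array carried the call, which held without each in turn at adjusted p = 0.00102 to 0.0366. It was lost without both arrays numbered 2 (log2 0.67, adjusted p = 0.133) and without both arrays numbered 3 (log2 0.91, adjusted p = 0.148), and it was missed when the prior spread was allowed to follow intensity and to be robust (log2 1.03, adjusted p = 0.0525). The dye effect of VIM was small (log2 0.05, SE 0.20). The mean log2 ratio was 1.08 ± 0.96 (SD, n = 4) with insulin in Cy5 and 0.98 ± 0.81 (SD, n = 4) with insulin in Cy3.

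**Figure D3:**
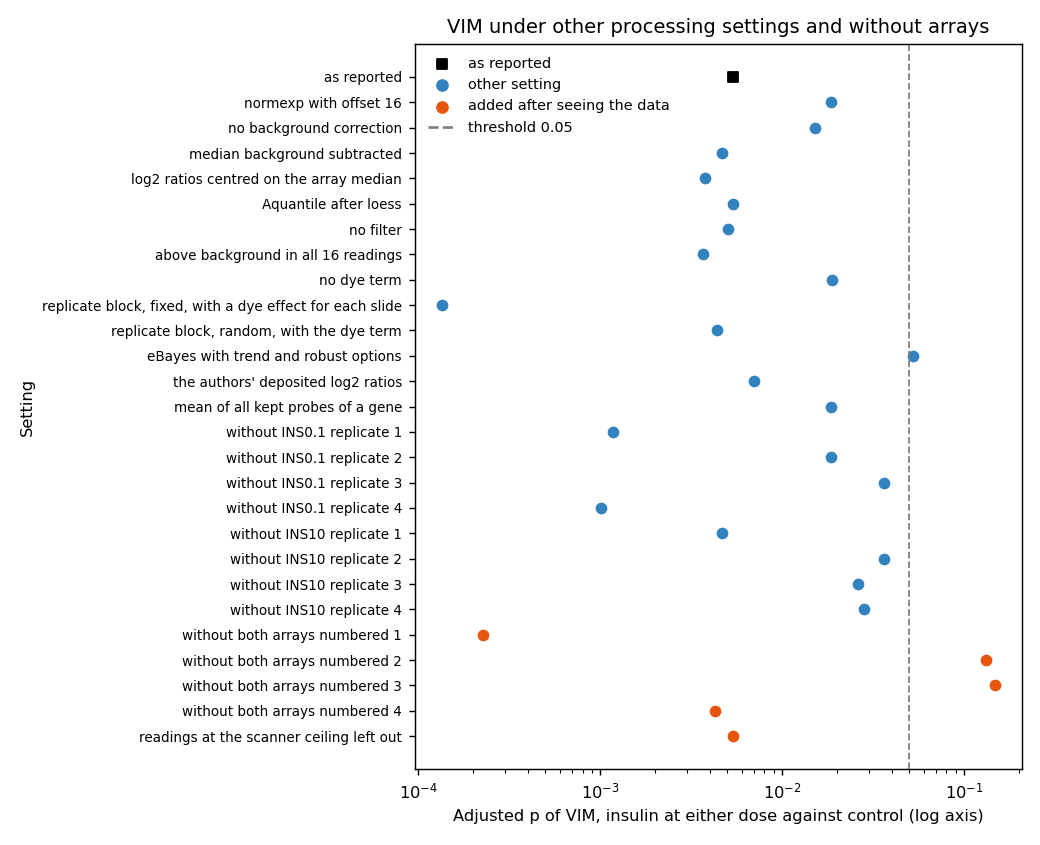
Adjusted p of VIM for insulin at either dose against the control (horizontal axis, log scale) as reported (black square), under other processing settings and without single arrays (blue) and under settings added after seeing the data (orange), with the threshold of 0.05 as a dashed line. The point for the robust variance model and those without both arrays numbered 2 or 3 lie right of the line.

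At each dose separately VIM had the same size and missed the threshold. At INS0.1 it was 2.08-fold higher (log2 1.06, SE 0.28, adjusted p = 0.154) and above 0 on 3 of 4 arrays, in a comparison with 0.109% of probes called. At INS10 it was 2.0-fold higher (log2 1.0, SE 0.28, adjusted p = 0.165) and above 0 on 4 of 4 arrays, with 0.436% of probes called. With the replicate number as a fixed block, and 1 dye term per slide, VIM passed at both, with adjusted p = 0.00863 at INS0.1 and 0.0103 at INS10. That fit takes the spread between numbers out of the error. With the number as a random block VIM passed at neither (adjusted p = 0.155 and 0.167). The difference of VIM between replicates 3 and 4 had opposite signs in the doses, at log2 1.74 for INS0.1 and −0.75 for INS10, and that between replicates 1 and 2 the same sign (−2.05 and −0.81). The INS0.1 value also passed without INS0.1 replicate 1 (log2 1.37, adjusted p = 0.0345), and the INS10 value without INS0.1 replicate 2 (log2 1.0, adjusted p = 0.0338), which enters it only through the shared estimates of spread and dye. Within INS0.1 the value fell to log2 0.55 on removal of replicate 2.

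On a log2 scale normalised between arrays, the control level was 8.20 at the lowest, 8.96 at the median and 9.71 at the highest over 8 readings. The INS10 levels were 9.86, 10.16, 9.72 and 9.78 on replicates 1 to 4, all above the highest control reading, though by as little as 0.01. Such a separation was seen for 0.389% of probes. The INS0.1 levels were 10.04, 11.35, 10.89 and 8.38, of which 3 lay above every control reading and replicate 4 among the controls. The SD was 0.49 over the 8 control levels, 1.31 over the 4 INS0.1 levels and 0.20 over the 4 INS10 levels. Control levels with the same replicate number differed between slides by 0.02 to 0.36, and insulin levels by 0.18 to 1.39. Since whole blastocysts were used, more VIM-expressing cells and more VIM RNA per cell cannot be told apart.

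None of the 4 keratins passed limma's test at either dose, or for the mean of both, and none had an unadjusted p under 0.05, the smallest being 0.138 for KRT19 at INS10. KRT8, the type II partner of KRT18, had log2 ratios of 0.32, 0.36, −0.15 and −0.08 on INS0.1 replicates 1 to 4 and of 0.86, 0.37, −0.31 and −0.75 on INS10 replicates 1 to 4. Its ratio was above 0 on all 4 arrays with insulin in Cy5 and below 0 on all 4 with insulin in Cy3. The fitted dye effect passed limma's test (log2 0.40, SE 0.11, adjusted p = 0.0439), as it did for 1538 of the 29384 probes. Net of the dye, the mean of both doses was log2 0.08 (SE 0.11, 95% confidence interval −0.16 to 0.31, adjusted p = 0.881). Leaving out readings at the ceiling keeps 1 array at INS0.1 and 3 at INS10, whose Cy5 readings are still 63812 to 65517, so these data give no KRT8 ratio free of the ceiling.

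KRT18, the type I partner, read 0.52, −0.08, −0.01 and −0.11 on INS0.1 replicates 1 to 4 and 0.83, 0.20, −0.18 and −0.14 on INS10 replicates 1 to 4, as log2 ratios. Both arrays numbered 1 were the highest of their dose, and the other 6 lay between −0.18 and 0.20. The mean of both doses was log2 0.13 (SE 0.11, 95% confidence interval −0.11 to 0.36, adjusted p = 0.774), and −0.03 without both arrays numbered 1 (adjusted p = 0.983). The array-to-array pattern of KRT18 was like that of its neighbour and partner KRT8, with r = 0.79 over the 8 ratios. Those 8 ratios share the dye orientations and, in KRT8, the ceiling.

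KRT19, a type I keratin of simple epithelia, had the smallest spread of ratios of the 5 genes. Its log2 ratios were 0.17, −0.06, 0.32 and −0.07 on INS0.1 replicates 1 to 4 and 0.25, 0.11, 0.25 and 0.30 on INS10 replicates 1 to 4. All 4 INS10 ratios were above 0, and all 8 lay within 0.40 of each other. The KRT19 spot read 72.8% to 90.8% of the ceiling in Cy5 and 61.5% to 98.2% in Cy3, and whether this narrowed the ratios was not tested. Its residual SD of 0.15 was among the lowest on the array, with 4.99% of probes below it. The mean of both doses was log2 0.16 (SE 0.10, 95% confidence interval −0.06 to 0.37, adjusted p = 0.669), and the value at INS10 was 0.23 (SE 0.15, adjusted p = 0.893).

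KRT7, a type II keratin of glandular epithelia and, in humans, of trophoblast, was dimmer on its probe and free of the ceiling. With insulin and in the control it read 2625 and 3539, 2081 and 2798, 2180 and 1797, and 1611 and 1499 on INS0.1 replicates 1 to 4, and 2926 and 3073, 2917 and 2709, 2217 and 2261, and 1750 and 1825 on INS10 replicates 1 to 4. The log2 ratios ran from −0.21 to 0.08 at INS0.1 and from −0.25 to 0.37 at INS10, on both sides of 0 at each dose. The mean of both doses was log2 −0.03 (SE 0.11, 95% confidence interval −0.26 to 0.19, adjusted p = 0.955). In fold terms this interval runs from 0.834 to 1.14.

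**Figure D4:**
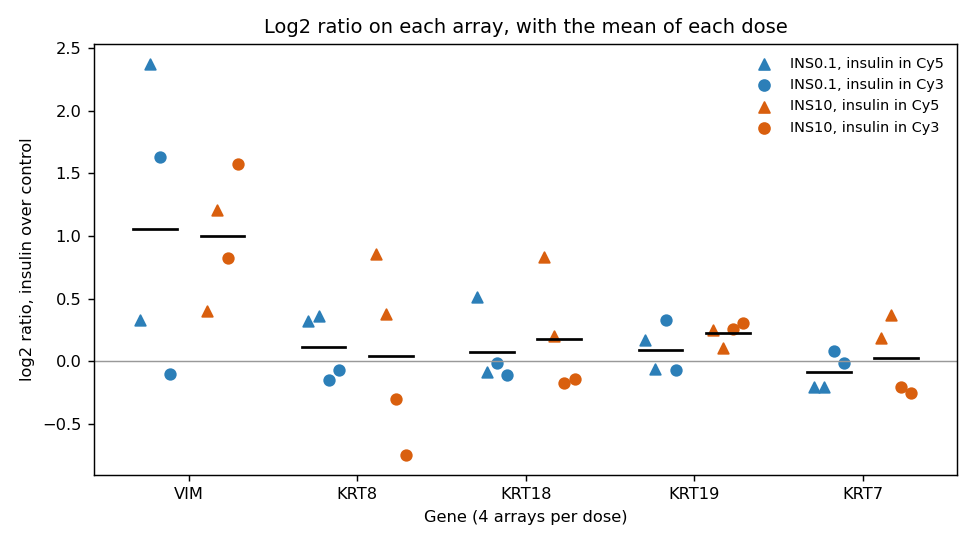
Log2 ratio of insulin over control (vertical axis) of each gene on each array, with INS0.1 in blue, INS10 in orange, insulin in Cy5 as triangles, insulin in Cy3 as circles, replicates 1 to 4 from left to right in each dose and the mean of each dose as a black bar. VIM spans −0.10 to 2.38, KRT8 splits by dye, and KRT19 spans −0.07 to 0.32.

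The upper confidence bounds of the 4 keratins for the mean of both doses, at log2 0.19 to 0.37, lay below the lower bound of VIM at 0.62. The bound of VIM rests on a spread partly borrowed from all probes, while its own residual SD was 0.97, above that of 99.9% of them. From its own spread alone the interval of VIM would be wider. The separation from the keratins therefore holds for limma's intervals only, and is not established from the spread of VIM alone. For KRT8 the ceiling limits what its bound covers. KRT18 read up to 94.3% of the ceiling in Cy5 and KRT19 up to 98.2% in Cy3. Whether this narrowed their ratios and bounds was not tested. Array by array, the ratio of VIM exceeded those of all 4 keratins on 5 of 8 arrays. VIM minus the keratin mean was 0.13, 2.38, 1.58 and −0.03 on INS0.1 replicates 1 to 4 and −0.13, 0.95, 0.94 and 1.79 on INS10 replicates 1 to 4. The arrays without a gap were the same 3 on which VIM itself was nearly level. This difference was not tested. Over the 8 arrays the ratios of VIM followed those of no keratin closely, with r between −0.42 (KRT18) and 0.05 (KRT19) over arrays that share slides and dye orientations.

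**Figure D5:**
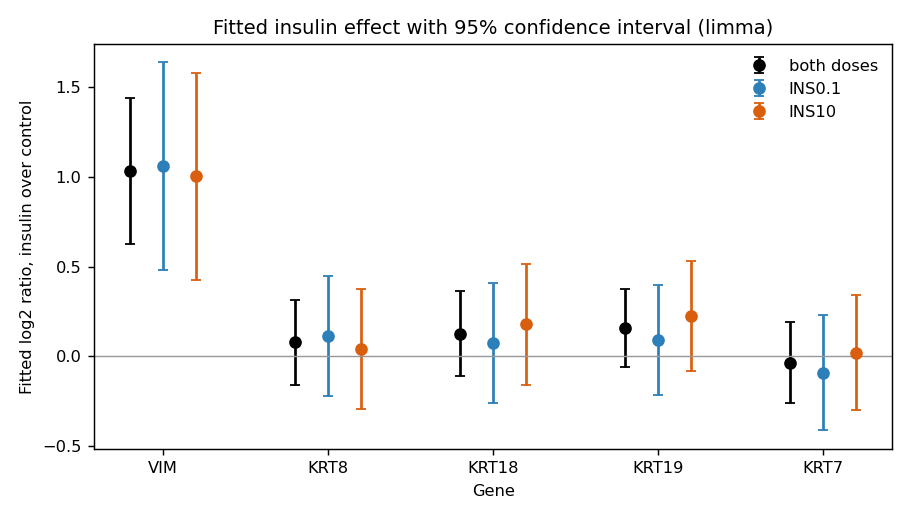
Fitted log2 ratio of insulin over control (vertical axis) with its 95% confidence interval from limma for each gene, as the mean of both doses (black), INS0.1 (blue) and INS10 (orange). VIM lies near 1.0 in all 3, and the intervals of the 4 keratins include 0.

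No difference between the doses was detectable in any of the 5 genes. INS10 minus INS0.1 was log2 −0.06 for VIM (SE 0.39, 95% confidence interval −0.87 to 0.76, adjusted p = 0.9999), an interval that reaches far to both sides of 0. For the keratins the difference ran from −0.07 (KRT8) to 0.14 (KRT19). No probe on the array passed this comparison with limma (0% called), and 2.88% had an unadjusted p under 0.05, none of them for these 5 genes.

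Other filament genes were then counted from lists chosen with earlier results of these data known. For the mean of both doses 2.12% of all named genes rose and 0.196% fell, and 10.3% of all probes had an unadjusted p under 0.05. Another 15 keratins passed the detection filter of at least 4 of 16 readings. In limma's test for the mean of both doses 0 of them rose, 0 fell and 0 had an unadjusted p under 0.05. Their median log2 ratio was 0.00 beside −0.01 over all 11718 named genes. The smallest unadjusted p belonged to KRT80 (log2 −0.22, adjusted p = 0.518) and KRT13 (log2 −0.23, adjusted p = 0.534). KRT80 was above background in 13 readings, but KRT13 and KRT24 in only 4, and KRT6B, KRT12 and KRT17 in 5. The highest count was 14, for KRT6A, KRT14 and KRT78. The summed level of the 15 genes was 2884 to 3384 in the control channels. Near background a change can be missed, so the counts of 0 do not show that the faint keratins were unchanged. A further 9 of the 24 on the array did not pass the detection filter.

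Among 12 other intermediate filament genes, 1 rose and 1 fell, with a median of 0.00. LMNA, which encodes the nuclear lamins A and C, rose on 8 of 8 arrays (log2 1.31, SE 0.15, adjusted p = 0.000122). NEFH, the heavy neurofilament gene, fell (log2 −0.43, SE 0.11, adjusted p = 0.0487), but its call was lost without any of 7 of the 8 arrays in turn, at adjusted p from 0.0865 (without INS10 replicate 4) through 0.0990 (INS10 replicate 2), 0.112 (INS10 replicate 3), 0.129 (INS0.1 replicate 4), 0.136 (INS0.1 replicate 3) and 0.178 (INS0.1 replicate 2) to 0.201 (INS10 replicate 1). The type III relative of vimentin PRPH, peripherin, had log2 0.17 (adjusted p = 0.704), and the neuronal filament gene INA had log2 −0.15 (adjusted p = 0.712).

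Of 13 genes that anchor filaments to desmosomes or link them to other cytoskeletal parts, 0 passed limma's test and 2 had an unadjusted p under 0.05, beside 10.3% of all probes (median log2 ratio −0.03). The linker gene DST, dystonin, was above 0 on 8 of 8 arrays (log2 0.40, adjusted p = 0.0913, or 0.0233 in the blocked fit), and the desmosomal cadherin gene DSG2 had log2 −0.31 (adjusted p = 0.273). Of 19 genes of epithelial adhesion and polarity, 0 passed and 3 had an unadjusted p under 0.05, beside the same 10.3% (median log2 ratio 0.01). The tight junction gene CLDN4 had log2 0.38 (adjusted p = 0.129, and 0.0387 with the block) and passed without INS10 replicate 3 (adjusted p = 0.0478). EZR, which ties membranes to actin in microvilli, had log2 0.52 (adjusted p = 0.168, and 0.00352 with the block) and passed without INS10 replicate 3 (adjusted p = 0.0397).

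No other listed gene typical of mesenchyme passed the test. Of 20 listed, 14 were above background, 0 rose or fell, and 0 had an unadjusted p under 0.05, beside 10.3% of all probes. SNAI2, ZEB1, ZEB2, TWIST1, TAGLN and DCN, above background in 0 to 3 readings, were not tested. Of those tested, COL1A1 was above background in only 5 readings, and CDH11 and COL3A1 in 7. Near background a change can be missed, so these counts do not show that the faint genes were unchanged. The median log2 ratio was 0.06, and 8 of 14 genes were above 0, as were 47.9% of all named genes. The mesenchymal cadherin gene CDH2 had log2 0.25 (adjusted p = 0.522), and the transcription factor gene SNAI1, which represses epithelial cadherin, had log2 0.20 (adjusted p = 0.590). At each dose alone 0 genes of the mesenchymal, epithelial, linker and other keratin lists passed limma's test. Those with an unadjusted p under 0.05 numbered 2, 3, 2 and 0 at INS0.1 and 0, 1, 0 and 1 at INS10, in the same order, beside 7.68% and 6.77% of all probes. In the other filament list LMNA passed at both, where 0.145% and 0.58% of named genes rose (log2 1.17 at INS0.1, adjusted p = 0.0349, and 1.44 at INS10, adjusted p = 0.0101).

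VIM is also strong in cumulus and granulosa cells, which surround the oocyte, and in fibroblasts, so their markers were set beside it. Of 18 cumulus and granulosa genes, 10 were above background in enough readings. INHA, AMHR2, FST, FOXL2 and VCAN were above background in 0 of 16 readings, AMH in 1, TNFAIP6 in 2 and LHCGR in 3. The summed level of the 10 was 8523 to 13080 in the control channels, 8932 to 19000 at INS0.1 and 10260 to 14050 at INS10, which overlap. The log2 ratio of the sums, insulin over control, was −0.13, −0.08, 0.54 and 0.32 on INS0.1 replicates 1 to 4 and 0.38, 0.33, 0.36 and 0.19 on INS10 replicates 1 to 4. It was thus above 0 on 4 of the 5 arrays where VIM was well above the control and on 2 of the other 3. In limma's test for the mean of both doses 3 of the 10 had an unadjusted p under 0.05, beside 10.3% of all probes. CYP11A1, the first enzyme of steroid synthesis, was the 1 gene of this list that rose (log2 0.84, adjusted p = 0.00346). CYP11A1 also passed at INS10 (log2 1.26, adjusted p = 0.0122), where 0.58% of named genes rose. The others were INHBA (log2 0.44, adjusted p = 0.0617) and CYP19A1 (log2 −0.26, adjusted p = 0.476). The list's median for both doses was −0.06.

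Of 8 fibroblast genes 6 passed the filter, PDGFRB was above background in 0 of 16 readings and DCN in 1. In limma's test for the mean of both doses 0 rose or fell, and 0 had an unadjusted p under 0.05. At INS0.1 alone 2 of the 6 had one, beside 7.68% of all probes. They were named after their values were seen and are also the 2 of the mesenchymal list, LUM (log2 1.03, adjusted p = 0.291) and COL1A1 (log2 0.40, adjusted p = 0.604). LUM was above background in 12 readings, COL1A1 in only 5 and COL3A1 in 7. The list's median log2 ratio at INS0.1 was 0.26. At INS10 0 of the 6 had an unadjusted p under 0.05, and the median was −0.02. Their summed level was 2112 to 3308 in the control channels, 2707 to 4192 at INS0.1 and 2149 to 2490 at INS10, so that INS10 lay within the control's range. At INS0.1 the insulin sum was highest on replicate 2, where VIM was highest, and lowest on replicate 4, where VIM was lowest. The control sum was also highest on INS0.1 replicate 2 (3308). As a log2 ratio of the sums, insulin over control was 0.41, 0.34, 0.23 and −0.24 on INS0.1 replicates 1 to 4. On INS10 replicates 1 to 4 it was 0.03, −0.46, 0.07 and 0.13. The median log2 ratio of these 6 genes was 0.95 on INS0.1 replicate 2 and −0.30 on replicate 4. It was −0.11 on INS10 replicate 2, where VIM was 1.21. What part such cells have in the VIM values was not tested. Of lineage markers of the embryo itself, 2 of 13 trophectoderm genes rose (TEAD4 and GATA2). So did 1 of 8 inner cell mass genes (SOX2) and 1 of 10 hypoblast genes (APOA1), beside 2.12% of all named genes. In the same order, 3, 3 and 2 genes had an unadjusted p under 0.05, beside 10.3% of all probes. All of these were higher with insulin except the trophectoderm gene ELF5 (log2 −0.27, limma adjusted p = 0.454). The median log2 ratios of these lists were 0.01, 0.22 and 0.09. Above 0 were 8, 7 and 6 genes, beside 47.9% of all named genes. Of 5 sperm genes above background, 1 fell in limma's test, beside 0.196% of all named genes. It was PRM1 (log2 −0.64, adjusted p = 0.00439), which also passed at INS10 (log2 −0.87, adjusted p = 0.0206), where 0.00853% of named genes fell.

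The genes whose 8 ratios were most like those of VIM were IFITM2, an interferon-induced membrane protein gene (r = 0.96), UQCRH of respiratory complex III (0.96), POLR2F, an RNA polymerase subunit gene (0.94), the calcium pump gene ATP2B1 (0.94) and ZFYVE9 (0.93), out of 11675 genes compared over the 8 arrays. Their own log2 ratios for the mean of both doses were 0.35, 0.08, −0.02, 0.06 and −0.05, all well under that of VIM, and none passed the test. For KRT8 the most alike were AXIN2, MRPS35, C7H19orf22, WDR87 and SHISA3 (r = 0.97 to 0.98), and for KRT18 PPIH, LOC783070, MYO5A, IARS2 and LOC509911 (0.96 to 0.97). For KRT19 they were ERGIC3, CYP2D14, ACTA2, NEXN and MED13L (0.92 to 0.97), and for KRT7 COPG, NUDT5, SREBF2, LHPP and MRPL1 (0.95 to 0.98). None of these genes passed the test for insulin at either dose. The arrays compared share dye orientation and slide, and no test was made of these correlations.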

How the data were processed

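Per the labels' protocols, RNA went through 2 rounds of amplification and chemical labelling with Cy3 or Cy5. The authors deposited raw median spot and background intensities of both channels, per the file headers, and a table of processed log2 ratios whose steps are not given in the sources used here. The deposited log2 columns had medians of −0.02 to 0.01. They ran with loess ratios of insulin over control from the scanner values after background subtraction (r from 0.993 to 0.998, slopes from 0.911 to 1.13), which gives their base, direction and centring. Whether they were scaled between arrays is unknown. The software that read the scans is not given in the sources used here.

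Intensities were corrected with normexp (offset 50) and normalised by loess within arrays, where 1418 control spots and all ignored spots had weight 0. Probes had to exceed the mean plus 2 SD of 153 negative controls in at least 4 of 16 readings. Ratios were turned to insulin over control by the labelled dyes and fitted with limma 3.58.1 in R 4.3.3 on all 29384 kept probes, with an effect per dose and a dye effect, and p-values were adjusted by Benjamini and Hochberg (threshold 0.05). Channel levels were further normalised with Aquantile and serve as description. Precision is limited by the number of arrays (median SE 0.11 for both doses, 0.16 for each). The fit was checked on simulated data.

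Each gene stands by its brightest kept probe. Some list genes, such as TEAD4, APOA1 and EZR with 2 kept probes each, have others whose values are not given here. From each list the genes past the threshold are named, plus the 2 with the next smallest p, and for each of the 5 genes the 5 with the highest correlation of ratios. Members and lists were chosen with earlier results of these data known. Symbols come from the platform's annotation. Alternatives covered background, normalisation, filter, dye term, variance model, the authors' values, the probe rule, replicate blocks and single arrays left out. Those without both arrays of a number or without ceiling readings, and all those for list genes, were chosen after seeing the data.

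Replicate numbers were checked for pairing. Deviations from the dose mean of same-numbered arrays correlated at 0.312, 0.221, 0.258 and 0.249 across slides, against at most 0.0956 between other numbers. Deviations from a dose mean sum to 0, which lowers the values between other numbers, and same-numbered arrays share dye orientation. Differences within an orientation correlated across slides at 0.261 (replicate 1 minus 2) and 0.223 (3 minus 4). Limma's consensus correlation of same-numbered arrays was −0.04. The labels do not state what a number shares, and these data do not settle whether such arrays are paired.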

Additional observations from a re-analysis of the deposited data

Results flagged for a closer look

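The log2 ratio of KRT18 on INS0.1 replicate 1 was 0.52, while the other 3 INS0.1 arrays lay between −0.11 and −0.01. The normalised log2 level of KRT19 in the insulin channel of INS10 replicate 3 was 15.87, while the other 3 INS10 readings lay between 15.68 and 15.70. Each stood apart from the rest of its group by Dixon's criterion for 4 values, which chance meets in about 1 in 20 groups. No ratio or level of VIM, KRT8 or KRT7 met it.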

How the results depend on the processing

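Of the 5 genes only VIM was called in any comparison or setting. For both doses averaged the count of called genes was 1, stayed 1 without each array in turn, and was 0 with the robust variance model and without both arrays numbered 2 or 3. At INS0.1 it was 0 as reported and 0 to 1 without single arrays, and it was 1 with the fixed replicate block and without both arrays numbered 1 (VIM adjusted p = 0.00785) or 4 (0.0491). At INS10 it was likewise 0 and 0 to 1 without single arrays, and 1 with the fixed replicate block, without both arrays numbered 1 (0.0408) and with the INS10 arrays fitted alone (0.00321). For INS10 against INS0.1 it was 0 throughout. The causes were not tested. The fixed replicate block left VIM called for both doses averaged (adjusted p = 0.000135), as did the random one (0.00439), which left the counts at 0 at each dose. Neither block changed a keratin call.

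Sign changes concerned values near 0, none of them called. Ratios centred on the median gave −0.016 for KRT8 and −0.028 for KRT7 at INS10. The authors' values gave −0.014 for KRT8 at both doses, −0.057 for KRT8 at INS10 and −0.021 for KRT18 at INS0.1. Without both arrays numbered 1, KRT18 was −0.026 (both doses), −0.042 (INS0.1) and −0.011 (INS10), and at INS10 KRT8 was −0.11 and KRT7 −0.00084, while PRPH was −0.0092. Without both numbered 2, KRT7 was −0.080 at INS10 and −0.044 between doses, where VIM was 0.31. VIM was 0.19 between doses without both numbered 3, and KRT8 0.13 without both numbered 4. Without ceiling readings, where the rest still lie near the ceiling and 1 array is left at INS0.1, KRT8 was −0.20 (both doses), −0.32 (INS0.1), −0.069 (INS10) and 0.25 (between doses). Without single arrays, the range for both doses was −0.0050 to 0.16 for KRT8 and −0.090 to 0.0076 for KRT7. At INS0.1 it was −0.0043 to 0.24 for KRT18, and at INS10 −0.12 to 0.20 for KRT8 and −0.091 to 0.10 for KRT7. Between doses it was −0.50 to 0.45 for VIM, −0.24 to 0.088 for KRT8, −0.063 to 0.19 for KRT18 and −0.00081 to 0.21 for KRT7. LMNA was called in 25 of 25 settings and NEFH in 9. Medians of channel levels moved by less than 1 SD without the step between arrays.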
